A study of Mus musculus with 8 samples.

Results

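The 42 genes described here encode proteins of the DNA damage response and of DNA repair: damage kinases and checkpoint adaptors (7 genes), break sensing and end resection (5), homologous recombination (11), RecQ helicases (2), the Fanconi anemia pathway (4), end joining (5), single-strand break repair (3), nucleotide excision repair (3) and mismatch repair (2). The rule that picks them is a list of names and uses no measured value, although the list was drawn up with earlier results of these data known. All 42 were present among the 39089 genes of the count tables, and all 42 were among the 13921 genes with enough counts to be tested. The RNA came from tumors of Myc-CaP, a mouse prostate cancer cell line driven by a *Myc* transgene, that carried either an empty control vector (WT) or an sgRNA against *Arid1a* introduced with a lentivirus (*Arid1a* KO). *Arid1a* encodes a part of SWI/SNF, which remodels chromatin. Cells were grown under the skin of 6-week-old male FVB mice. From day 16, mice were given either JSH-23 or corn oil vehicle for 2 weeks by daily gavage. JSH-23, which blocks the nuclear entry of the NF-κB subunit p65, was dissolved in DMSO and diluted in corn oil. The paper's figure legend names the control treatment of these tumors DMSO. Tumor cells were then sorted as EpCAM+, CD45- cells for RNA-seq. This gave 4 groups of 2 samples: WT with vehicle, *Arid1a* KO with vehicle, WT with JSH-23 and *Arid1a* KO with JSH-23. All 4 groups share the line's *Myc* transgene, and the host mice keep their immune system.

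DNA is damaged in every cell cycle, and repair is divided among pathways by the kind of lesion. The kinases ATM and ATR signal double-strand breaks and stalled replication forks to the checkpoint kinases CHK2 and CHK1. Homologous recombination and the Fanconi anemia pathway work mainly in S and G2 phase, when a sister chromatid is present, and many of their genes are transcribed together with replication genes under E2F transcription factors. End joining, base and single-strand break repair and nucleotide excision repair act throughout the cell cycle, and their genes depend less on it.

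Libraries held between 16401581 and 21972231 counts, and the labels do not say whether the 2 samples of a group came from separate tumors, so p-values measure the spread between these samples, which may be technical. The biological coefficient of variation over all genes was 1.61%, and the 5 comparisons called 38.4 to 67.8% of all genes tested. A count of repair genes is therefore to be read beside the share of all genes called. *Arid1a* itself measured 156 and 161 CPM (read counts relative to the TMM-scaled library size) in the vehicle samples of WT and 103 and 106 CPM in those of *Arid1a* KO tumors, and 144 and 155 CPM and 93.8 and 95.9 CPM in the JSH-23 samples, so its transcript was lower in the KO samples but still present. Of the 6 epithelial markers, *Epcam* had 0 to 4 counts in every library although the cells were sorted as EpCAM+, *Cdh1* had 1 to 19, *Krt18* 4 to 18 and *Cldn7* 0 to 5, while *Krt8* had 540 to 2308. The immune cell gene *Ptprc*, which encodes CD45, had 0 to 10. In such bulk samples, fewer cells of a type and less RNA per cell cannot be told apart.

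The promoters of these genes were searched for the letters TTTCCCGC, TTTCGCGC, TTTGCCGC and TTTGGCGC, on either strand, which are forms of the E2F site. Promoters, taken as 250 bases before to 50 bases after the transcription start in RefSeq (GRCm38.p6), were held for 32 of the 42 genes. An E2F form stood in 8 of them (25.0%), against 2.6% of all 27025 genes with a promoter and 4.48% of the 11001 tested genes with one. Among the replication and proliferation genes described below, it stood in 10 of 28 (35.7%), a larger share. The stretches that hold an E2F form in the repair gene promoters are shown as the part that the search found. Of the 8 genes, 7 had lower transcript levels with JSH-23 in *Arid1a* KO tumors, where 22 of all 32 genes with a promoter were lower. Each is 30 bases on the strand of its gene, 5′ to 3′, with the E2F letters in capitals, and *Rad51c* is shown for both of its annotated starts.
Bard1: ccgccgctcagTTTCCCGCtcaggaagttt
Chek2: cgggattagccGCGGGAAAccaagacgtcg
Brca2: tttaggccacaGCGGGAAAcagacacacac
Topbp1: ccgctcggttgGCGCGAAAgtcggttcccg
Rad51c: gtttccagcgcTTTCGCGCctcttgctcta
Rad51c: cccccgcgaggGCGGGAAAagcaaggggtc
Xrcc6: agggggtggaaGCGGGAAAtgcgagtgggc
Mdc1: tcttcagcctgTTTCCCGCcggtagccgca
Msh6: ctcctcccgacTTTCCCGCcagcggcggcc

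In GRCm38.p6 these stretches are Bard1 at chr1:71103163-71103192, Chek2 at chr5:110839820-110839849, Brca2 at chr5:150522442-150522471, Topbp1 at chr9:103305187-103305216, Rad51c at chr11:87404477-87404506, Rad51c at chr11:87404941-87404970, Xrcc6 at chr15:82016312-82016341, Mdc1 at chr17:35841471-35841500, Msh6 at chr17:87975054-87975083. The genes *Bard1* and *Rad51c* lie on the minus strand and the others on the plus strand. The first capital letter lies 209 bases before the start in *Bard1*, 152 in *Chek2*, 168 in *Brca2*, 129 in *Topbp1*, 46 in *Xrcc6* and 16 in *Mdc1*, and 15 bases after it in *Msh6*. In *Rad51c* it lies 11 bases after one start and 5 bases before the other. The CCAAT letters, on either strand, stood in 19 of the 32 promoters (59.4%) against 42.9% of tested genes, and the NF-κB consensus stood in 1 (3.12%), that of *Atr*, against 12.1%. Of the replication and proliferation genes, 71.4% held the CCAAT letters. A match says that these letters are present, not that a factor binds there.

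Per transcript length, *Parp1*, which encodes the poly(ADP-ribose) polymerase that marks strand breaks, was the most abundant of the 42 transcripts, with group means of 117 to 122 TPM (counts scaled by gene length). *Topbp1* (64.5 to 96.1 TPM) and *Msh6* (64.3 to 80.9 TPM) followed, and their ranges over the 4 groups overlapped. *Lig4* was the least abundant at 1.23 to 2.04 TPM, below *Rad51b* (1.64 to 3.77 TPM) and *Fancc* (1.79 to 3.81 TPM), and these 3 ranges overlapped as well. Of all counts in a library, the 42 genes took 0.208 to 0.210% in the vehicle samples of WT and 0.251 to 0.253% in those of *Arid1a* KO tumors, and 0.188 to 0.192% and 0.210 to 0.212% in the JSH-23 samples. Their summed level was thus higher in *Arid1a* KO than in WT samples under either treatment and lower with JSH-23 in either genotype, with samples not overlapping in the first comparison or in the second.

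**Figure D1:**
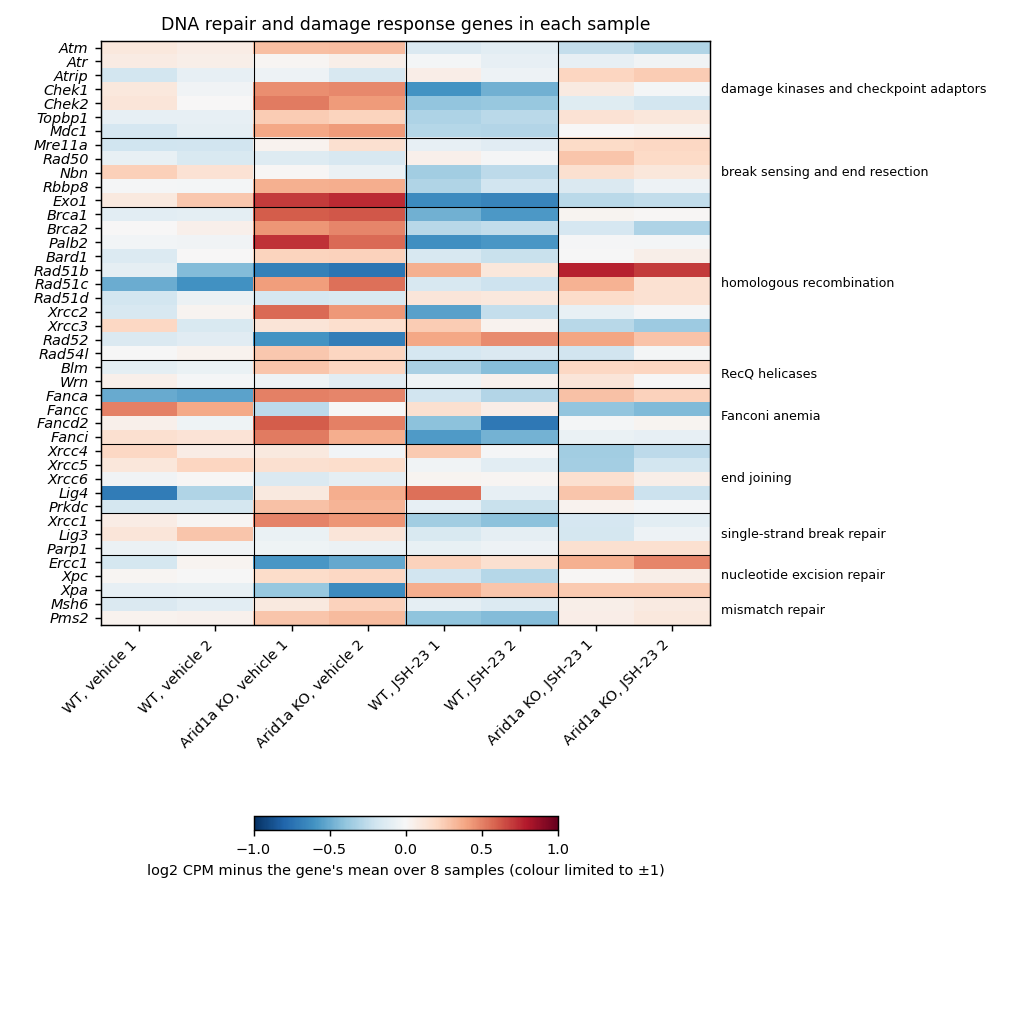
Each row is a gene and each column a sample, and the colour is the log2 CPM of that sample minus the gene's mean over the 8 samples. Most rows are red in the 2 *Arid1a* KO samples with vehicle and blue in the 2 WT samples with JSH-23, while *Rad51b*, *Rad52*, *Ercc1* and *Xpa* run the other way in the *Arid1a* KO samples with vehicle.

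The first comparison asked how loss of *Arid1a* changed these genes. With vehicle, most of them were more abundant in *Arid1a* KO than in WT tumors: 25 rose, 7 fell and 10 did not pass the test (edgeR quasi-likelihood test, Benjamini-Hochberg adjusted p under 0.05). The 32 called make 76.2% of the genes, against 50.5% of all genes tested. Those that rose were 25 of the 42, against 3476 of all 13921 genes (25%). The median difference was 0.27 on the log2 scale, against 0.003 over all genes. Those that rose at least 1.5-fold were *Rad51c*, *Fanca*, *Lig4*, *Brca1* and *Palb2*, while none fell by that much, and 7.48% of all genes rose and 5.16% fell by that much (12.6% in all). Samples of the 2 genotypes did not overlap for 34 of the 42 (81.0%), against 74% of all genes. The 10 that missed the threshold (*Atr*, *Atrip*, *Rad50*, *Rad51d*, *Xrcc3*, *Wrn*, *Xrcc4*, *Xrcc5*, *Xrcc6* and *Parp1*) differed by -0.11 to 0.11, with 95% intervals within -0.35 to 0.31.

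With JSH-23 in both genotypes, 26 genes were higher and 5 lower when *Arid1a* was lost, which is 73.8% against 47% of all genes, where 23.2% were higher and 23.8% lower. The differences were smaller, and the largest in either direction was *Blm* at 0.5848, only just below 1.5-fold. Of all genes, 3.74% rose and 4.97% fell by 1.5-fold or more (8.71% in all). Samples did not overlap for 35 of the 42 (83.3%), against 70.7% of all genes. The median was 0.22 against -0.01 over all genes. These samples are other samples than those of the vehicle comparison, and 20 genes were higher in both, which is 80.0% of the 25 and 76.9% of the 26. The share of all genes called alike under both treatments was not counted. *Fancc*, which encodes a Fanconi core complex subunit, was lower in both. *Atm* was higher with vehicle and lower with JSH-23, and *Nbn*, *Rad51b* and *Ercc1* were lower with vehicle and higher with JSH-23, calls that did not hold in every alternative (given with each gene below). The split depends on scaling here: limma on log2(TPM + 1) called 11 higher and 8 lower, and on that scale the median of all genes stood at -0.16.

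**Figure D2:**
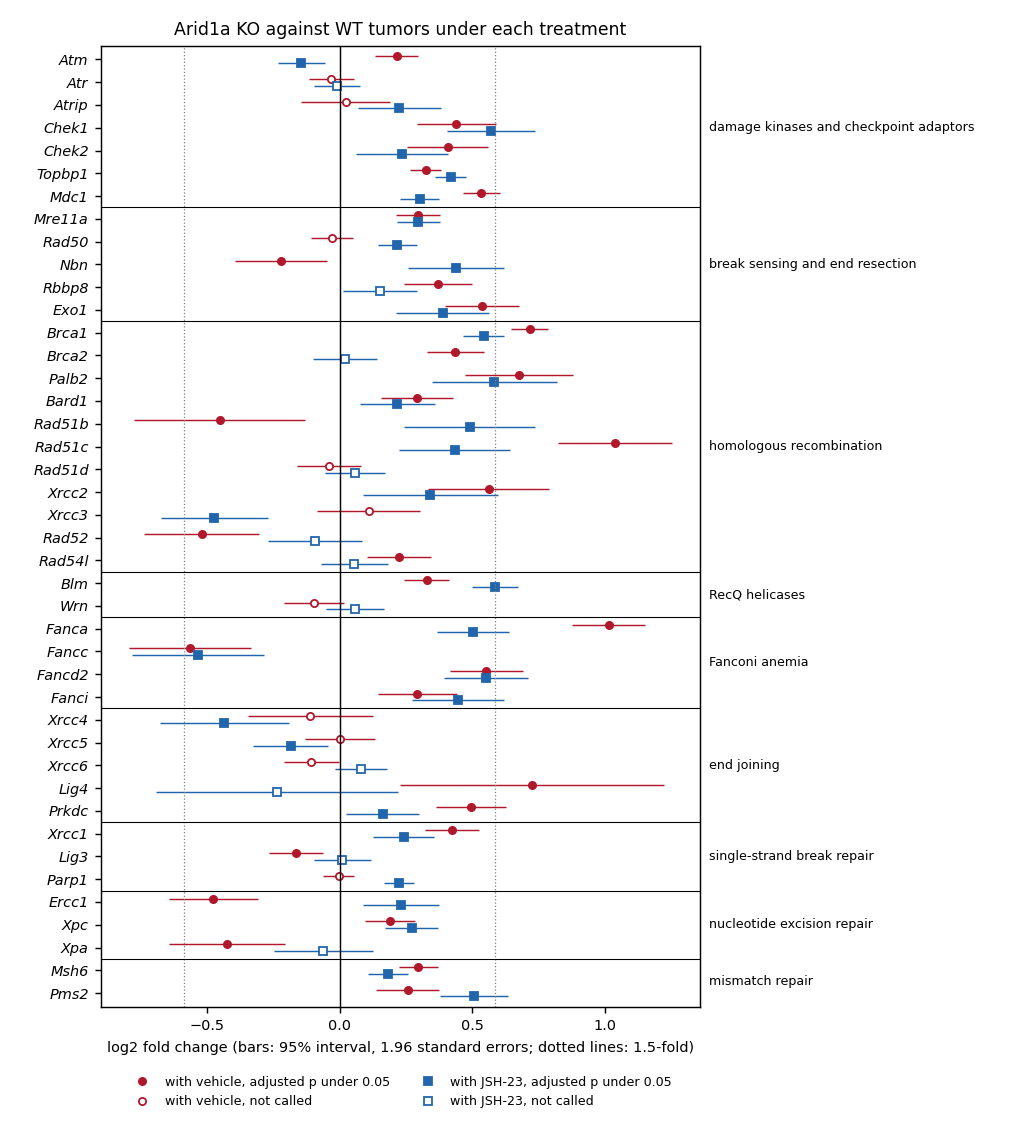
Points give the log2 fold change of *Arid1a* KO against WT tumors for each of the 42 genes, with vehicle (red circles) and with JSH-23 (blue squares), bars the 95% interval, and open symbols genes that did not pass the test. With vehicle, 25 points lie above 0 and pass, of which *Rad51c* (1.04) and *Fanca* (1.01) lie farthest right. With JSH-23 no point passes the dotted 1.5-fold lines, though *Blm* (0.5848) lies only just short.

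The second comparison asked how JSH-23 changed these genes in *Arid1a* KO tumors. Most fell: 28 of the 42 were lower, 11 were higher and 3 (*Nbn*, *Blm* and *Lig4*) did not pass the test. The 39 called make 92.9%, against 67.8% of all genes. Those lower were 28 of the 42, against 4791 of all 13921 genes (34.4%). The median was -0.22, against -0.02 over all genes. At 1.5-fold or more, *Exo1*, *Brca2*, *Palb2*, *Chek2*, *Xrcc1* and *Brca1* fell, and *Rad51b*, *Rad52*, *Ercc1* and *Xpa* rose, where 9.1% of all genes rose and 16.9% fell by that much (26% in all). Samples did not overlap for 40 of the 42 (95.2%), against 82.9% of all genes. With limma on log2(TPM + 1), 5 were higher and 30 lower, with the median of all genes at -0.20, and the fold changes of *Mre11a*, *Parp1*, *Wrn* and *Xrcc6* turned from positive to negative in sign. The *Arid1a* KO vehicle samples serve both here and in the first comparison with vehicle. Opposite directions in these comparisons, for the 42 genes and the lists below, are therefore not independent.

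In WT tumors, 23 of the 42 genes were lower with JSH-23, 9 were higher and 10 did not pass the test. The 32 called make 76.2% against 55.8% of all genes, where 27.2% of all genes were lower and 28.6% higher. The median was -0.17 against -0.006 over all genes. At 1.5-fold or more, *Exo1* and *Fanci* fell and *Lig4* rose, where 10.2% of all genes fell and 5.55% rose by that much (15.8% in all). Samples did not overlap for 36 of the 42 (85.7%), against 76.4% of all genes. Without replicate 1 of the WT samples with JSH-23, 5 in place of 9 were higher. The comparisons within WT and within *Arid1a* KO tumors share no sample. A total of 21 genes were lower in both, which is 75.0% of the 28 lower in *Arid1a* KO and 91.3% of the 23 lower in WT tumors. Higher in both were *Rad50*, *Rad51b*, *Rad51d*, *Rad52*, *Ercc1* and *Xpa*, which is 54.5% of the 11 and 66.7% of the 9. How many of all genes were called alike in both genotypes was not counted, so these shares stand without a background. *Rad51c* and *Fanca* fell in *Arid1a* KO tumors and rose in WT tumors.

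**Figure D3:**
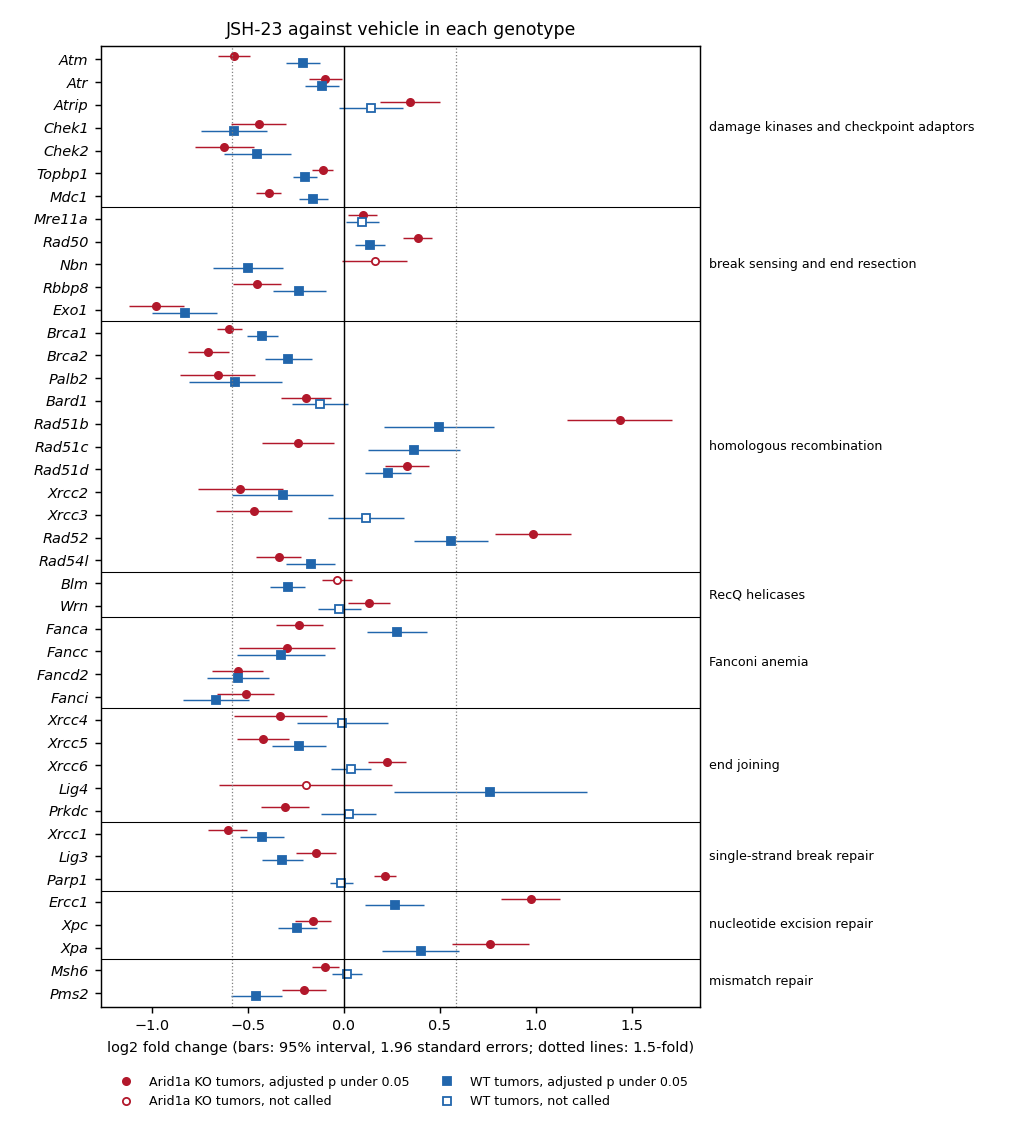
Points give the log2 fold change of JSH-23 against vehicle for each of the 42 genes in *Arid1a* KO (red circles) and WT tumors (blue squares), bars the 95% interval, and open symbols genes that did not pass the test. Most points lie left of 0 in both genotypes, with *Exo1* at -0.98 and -0.83, and *Rad51b* (1.44), *Rad52* (0.99) and *Ercc1* (0.97) lie farthest right in *Arid1a* KO tumors.

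Whether the JSH-23 effect differed between the genotypes was tested with the interaction term. It passed for 19 of the 42 genes (45.2%), against 38.4% of all genes, with 10 positive and 9 negative values and a median of -0.0008. The interaction was past 1.5-fold for *Rad51b* (0.94), *Ercc1* (0.71) and *Nbn* (0.66) on the positive side and for *Lig4* (-0.96) and *Rad51c* (-0.60) on the negative side, and 3.3% of all genes were positive and 5.76% negative at that size (9.07% in all). Library size scaling gave 6 positive and 15 negative calls, and limma on log2(TPM + 1) gave 3 and 16, with the median of all genes at -0.11 and -0.17. With a biological coefficient of variation of 0.1 for every gene in place of the fitted one, the interaction passed for *Ercc1* and *Rad51b* alone, against 5.37% of all genes. At that spread, 14 genes rose and 3 fell with *Arid1a* loss with vehicle (20.6% of all genes called), 10 and 2 with JSH-23 (13.6%), and JSH-23 raised 5 and lowered 15 in *Arid1a* KO (43.2%) and raised 3 and lowered 10 in WT tumors (26.1%).

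Among the damage kinases and checkpoint adaptors, *Atm*, the kinase that answers double-strand breaks, measured 89.6 and 87.5 CPM in the vehicle samples of WT and 102 and 103 CPM in those of *Arid1a* KO tumors, and 75.4 and 77.3 CPM and 70.6 and 67.7 CPM in the JSH-23 samples. It was highest in the *Arid1a* KO samples with vehicle and lowest in those with JSH-23, with no overlap between groups. The fall with JSH-23 was -0.57 ± 0.042 (SE), adjusted p = 6.6e-20 in *Arid1a* KO tumors by edgeR and -0.21 ± 0.044 (SE), adjusted p = 3.1e-05 in WT tumors, and the interaction was -0.36 ± 0.061 (SE), adjusted p = 1.4e-06. The difference between genotypes with JSH-23 (-0.14) was not called by DESeq2 or with the trend over gene length removed. Nor was it called without replicate 2 of the WT or of the *Arid1a* KO samples with JSH-23. *Atr*, the kinase of stalled forks, moved little, between 75.9 and 84.8 CPM in all 8 samples, and its fall with JSH-23 of -0.10 in *Arid1a* KO tumors changed sign with the length trend removed. *Atrip*, the partner of ATR, rose with JSH-23 in *Arid1a* KO tumors by 0.34, and its gene shares its strand with the *Atrip-trex1* readthrough gene, so its counts are uncertain.

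*Chek2*, the checkpoint kinase downstream of ATM, measured 25.4 and 23.3 CPM in the vehicle samples of WT and 33.4 and 31.2 CPM in those of *Arid1a* KO tumors, and 17.7 and 17.9 CPM and 21.4 and 20.5 CPM in the JSH-23 samples. Every JSH-23 sample lay below every vehicle sample. It rose with *Arid1a* loss by 0.41 ± 0.078 (SE), adjusted p = 9.1e-06 (edgeR), and fell with JSH-23 by -0.62 ± 0.078 in *Arid1a* KO and -0.45 ± 0.089 in WT tumors on the log2 scale. *Chek1*, the checkpoint kinase downstream of ATR, ran alike, from 17.0 CPM in WT tumors with JSH-23 up to 36.0 CPM in *Arid1a* KO vehicle samples, with changes of 0.44, -0.44 and -0.57. The E2F letters shown above for *Chek2*, *Topbp1* and *Mdc1* were not in the *Chek1* promoter window.

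*Topbp1*, the activator of ATR, measured 166 and 167 CPM in the vehicle samples of WT and 211 and 206 CPM in those of *Arid1a* KO tumors, and 143 and 147 CPM and 195 and 192 CPM in the JSH-23 samples. *Arid1a* KO samples lay above all WT samples under either treatment, by 0.32 ± 0.030 with vehicle and 0.42 ± 0.031 with JSH-23. *Mdc1*, the scaffold that holds repair factors at breaks, measured 107 and 113 CPM in the vehicle samples of WT and 157 and 161 CPM in those of *Arid1a* KO tumors, and 98.6 and 98.0 CPM and 120.4 and 122 CPM in the JSH-23 samples. Its 4 groups did not overlap, and it fell more with JSH-23 in *Arid1a* KO (-0.39 ± 0.034) than in WT tumors (-0.16 ± 0.039), with an interaction of -0.23, adjusted p = 1.7e-04 (edgeR).

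The MRN complex, which binds broken ends, did not move as a unit. *Nbn*, its signaling subunit, measured 22.7 and 21.3 CPM in the vehicle samples of WT and 19.3 and 18.5 CPM in those of *Arid1a* KO tumors, and 15.1 and 16.0 CPM and 21.5 and 20.8 CPM in the JSH-23 samples. The WT samples with JSH-23 were the lowest. It fell with JSH-23 in WT tumors by -0.50 ± 0.094 (SE), adjusted p = 5.1e-06 (edgeR), while in *Arid1a* KO tumors the change was 0.16 with a 95% interval of -0.01 to 0.33, and the interaction was 0.66, adjusted p = 1.7e-05. Its difference between genotypes with vehicle (-0.22) was not called without replicate 1 of the WT vehicle samples (-0.18) or without replicate 1 (-0.25) or 2 (-0.19) of the *Arid1a* KO vehicle samples, nor by DESeq2, with library size scaling, without a filter on low counts, or by limma on TPM. *Rad50*, the coiled-coil subunit, rose with JSH-23 by 0.38 in *Arid1a* KO and 0.14 in WT tumors, and *Mre11a*, the nuclease subunit, was higher in *Arid1a* KO tumors by 0.30 with vehicle and 0.30 with JSH-23.

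*Exo1*, the exonuclease of long-range resection and of mismatch repair, had the largest fall with JSH-23 of all 42 genes in both genotypes. It measured 27.0 and 30.3 CPM in the vehicle samples of WT and 40.9 and 42.2 CPM in those of *Arid1a* KO tumors, and 16.3 and 15.9 CPM and 20.9 and 21.3 CPM in the JSH-23 samples. Every JSH-23 sample was below every vehicle sample, and *Arid1a* KO lay above WT samples under either treatment. The fall was -0.98 ± 0.074 (SE), adjusted p = 3.0e-19 in *Arid1a* KO and -0.83 ± 0.087 (SE), adjusted p = 5.0e-13 in WT tumors (edgeR), and the interaction was -0.15 with a 95% interval of -0.37 to 0.08. A predicted gene, *Gm23805*, lies on the strand of *Exo1*. *Rbbp8*, which encodes CtIP, the starter of resection, ranged from 28.7 to 45.5 CPM, rose with *Arid1a* loss by 0.37 and fell with JSH-23 by -0.45 in *Arid1a* KO and -0.23 in WT tumors.

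Of the 11 homologous recombination genes, 7 rose and 2 fell with *Arid1a* loss under vehicle, while JSH-23 lowered 8 and raised 3 in *Arid1a* KO tumors. That is 81.8% called with *Arid1a* loss against 50.5% of all genes, and 100% called with JSH-23 against 67.8%. *Brca1*, which directs resection and recombinase loading, measured 104 and 105 CPM in the vehicle samples of WT and 171 and 172 CPM in those of *Arid1a* KO tumors, and 80.2 and 75.1 CPM and 114 and 113 CPM in the JSH-23 samples. The *Arid1a* KO samples with vehicle stood apart at the top and the 4 groups did not overlap. The rise with *Arid1a* loss was 0.72 ± 0.035 (SE), adjusted p = 3.5e-28 with vehicle and 0.54 ± 0.040 with JSH-23, and the fall with JSH-23 was -0.60 ± 0.034 in *Arid1a* KO and -0.42 ± 0.041 in WT tumors (edgeR). *Bard1*, its partner in a ubiquitin ligase, moved less, by 0.29 with *Arid1a* loss and -0.20 with JSH-23 in *Arid1a* KO tumors.

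*Brca2*, the loader of the recombinase, measured 48.5 and 50.1 CPM in the vehicle samples of WT and 65.5 and 67.9 CPM in those of *Arid1a* KO tumors, and 39.9 and 40.8 CPM and 43.1 and 38.9 CPM in the JSH-23 samples. The *Arid1a* KO samples with vehicle were the highest, and the 2 genotypes overlapped with JSH-23, where they differed by 0.02 with a 95% interval of -0.10 to 0.14. The fall with JSH-23 was -0.71 ± 0.056 (SE), adjusted p = 2.2e-18 in *Arid1a* KO and -0.29 ± 0.062 in WT tumors, with an interaction of -0.42, adjusted p = 3.1e-05 (edgeR). *Palb2*, the bridge between BRCA1 and BRCA2, measured 11.9 and 11.8 CPM in the vehicle samples of WT and 20.0 and 18.0 CPM in those of *Arid1a* KO tumors, and 7.93 and 8.09 CPM and 12.1 and 11.9 CPM in the JSH-23 samples. It was raised by *Arid1a* loss by 0.68 ± 0.10 with vehicle and 0.58 ± 0.12 with JSH-23, and lowered by JSH-23 by -0.66 ± 0.10 and -0.57 ± 0.12.

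The recombinase paralogs, small helpers of strand exchange, split. *Rad51c* measured 9.32 and 8.65 CPM in the vehicle samples of WT and 17.6 and 19.2 CPM in those of *Arid1a* KO tumors, and 11.8 and 11.4 CPM and 16.8 and 14.6 CPM in the JSH-23 samples. All *Arid1a* KO samples lay above all WT samples, and the rise with vehicle, 1.04 ± 0.11 (SE), adjusted p = 9.1e-13 (edgeR), was the largest of the 42. JSH-23 raised it in WT tumors by 0.37 ± 0.12 and lowered it in *Arid1a* KO tumors by -0.24 ± 0.096, with an interaction of -0.60, adjusted p = 0.0011. The fall in *Arid1a* KO tumors was not called without replicate 2 of the *Arid1a* KO samples with vehicle, without replicate 2 of those with JSH-23, or with the length trend removed, at -0.16, -0.12 and -0.19. The rise in WT tumors was not called without replicate 2 of the vehicle samples (0.31) or replicate 1 of the JSH-23 samples (0.34), nor by limma on log2(TPM + 1) without a filter (0.28). DESeq2 called neither of these JSH-23 changes. *Xrcc2*, from 7.04 to 15.1 CPM, rose with *Arid1a* loss by 0.56 and fell with JSH-23 by -0.54 in *Arid1a* KO tumors, and *Xrcc3* fell with JSH-23 by -0.47 in *Arid1a* KO tumors while the change in WT tumors was 0.11.

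*Rad51b* ran the opposite way. It measured 6.89 and 5.41 CPM in the vehicle samples of WT and 4.59 and 4.41 CPM in those of *Arid1a* KO tumors, and 9.38 and 7.90 CPM and 12.5 and 11.9 CPM in the JSH-23 samples. It was lowest in the *Arid1a* KO samples with vehicle and highest in those with JSH-23. The rise with JSH-23 was 1.44 ± 0.14 (SE), adjusted p = 1.7e-14 in *Arid1a* KO, the largest change of any of the 42 genes in a pairwise comparison, and 0.50 ± 0.15 (SE), adjusted p = 0.0032 in WT tumors (edgeR). The lower level with vehicle (-0.45) was not called without replicate 1 of the WT samples or replicate 2 of the *Arid1a* KO samples, nor the rise in WT tumors without replicate 2 of the vehicle or replicate 1 of the JSH-23 samples (-0.27, -0.42, 0.33 and 0.37 in that order). DESeq2 did not call the lower level with vehicle, and limma on TPM called neither it nor the higher level with JSH-23. *Rad51d* rose with JSH-23 as well, by 0.33 in *Arid1a* KO and 0.23 in WT tumors.

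*Rad52*, a mediator of strand annealing, measured 14.0 and 14.4 CPM in the vehicle samples of WT and 10.2 and 9.59 CPM in those of *Arid1a* KO tumors, and 20.3 and 21.5 CPM and 20.3 and 18.9 CPM in the JSH-23 samples. All 4 JSH-23 samples lay above all 4 vehicle samples, and with vehicle the *Arid1a* KO samples were below the WT samples. It fell with *Arid1a* loss by -0.52 ± 0.11 with vehicle, while with JSH-23 the difference was -0.09 with a 95% interval of -0.27 to 0.08. JSH-23 raised it by 0.99 ± 0.10 (SE), adjusted p = 1.2e-13 in *Arid1a* KO and 0.56 ± 0.098 in WT tumors (edgeR). *Rad54l*, the translocase of strand exchange, went the way of *Brca1*, with 0.22 for *Arid1a* loss and -0.34 for JSH-23 in *Arid1a* KO tumors.

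**Figure D4:**
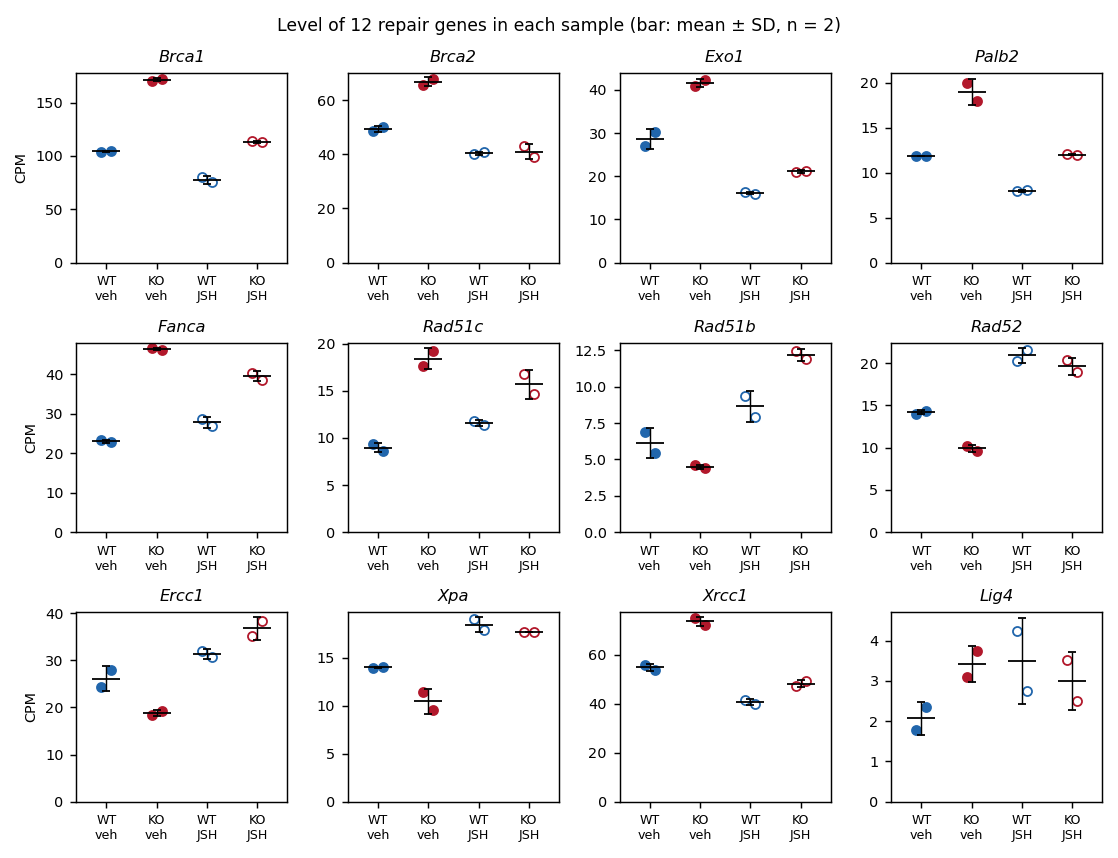
Each panel gives the CPM of a gene in the 8 samples, with the mean and SD of each pair, for WT (blue) and *Arid1a* KO (red) tumors with vehicle (filled) or JSH-23 (open), on an axis that starts at 0. *Brca1*, *Brca2*, *Exo1*, *Palb2*, *Fanca*, *Rad51c* and *Xrcc1* are highest in *Arid1a* KO tumors with vehicle, while *Rad51b*, *Rad52*, *Ercc1* and *Xpa* are lowest there, and the *Lig4* pairs overlap in part.

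The RecQ helicases unwind recombination intermediates. *Blm* measured 80.0 and 81.8 CPM in the vehicle samples of WT and 104 and 99.4 CPM in those of *Arid1a* KO tumors, and 68.2 and 63.6 CPM and 98.9 and 99.0 CPM in the JSH-23 samples. *Arid1a* KO samples lay above WT samples under both treatments, by 0.33 ± 0.042 with vehicle and 0.58 ± 0.044 with JSH-23. It fell with JSH-23 in WT tumors by -0.29 ± 0.047 (SE), adjusted p = 1.5e-07 (edgeR), while in *Arid1a* KO tumors the change was -0.04 with a 95% interval of -0.12 to 0.04, and the interaction was 0.26, adjusted p = 4.5e-04. *Wrn* ranged from 49.5 to 57.6 CPM over the 8 samples, and its one call was a rise of 0.13 with JSH-23 in *Arid1a* KO tumors, which changed sign on the TPM scale.

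In the Fanconi anemia pathway, which removes interstrand crosslinks, *Fanca*, a core complex subunit, measured 23.2 and 22.7 CPM in the vehicle samples of WT and 46.6 and 46.2 CPM in those of *Arid1a* KO tumors, and 28.8 and 26.8 CPM and 40.4 and 38.6 CPM in the JSH-23 samples. The *Arid1a* KO samples lay above all WT samples, and the vehicle samples differed by 1.01 ± 0.071 (SE), adjusted p = 1.5e-20 (edgeR). JSH-23 raised it in WT by 0.28 ± 0.079 and lowered it in *Arid1a* KO tumors by -0.23 ± 0.062, with an interaction of -0.51, adjusted p = 2.2e-05. *Fanci*, a subunit of the clamp that the pathway ubiquitinates, measured 27.4 and 26.9 CPM in the vehicle samples of WT and 35.1 and 31.6 CPM in those of *Arid1a* KO tumors, and 16.6 and 17.7 CPM and 23.5 and 23.2 CPM in the JSH-23 samples. All JSH-23 samples were below all vehicle samples, with falls of -0.51 ± 0.076 in *Arid1a* KO and -0.67 ± 0.087 in WT tumors. Its partner *Fancd2* fell by -0.55 and -0.55, and rose with *Arid1a* loss by 0.55 and 0.55. *Fancc* was the exception, being lower in *Arid1a* KO tumors by -0.56 with vehicle and -0.53 with JSH-23.

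Of the 5 end joining genes, 2 rose with *Arid1a* loss with vehicle and 3 did not pass the test, a share of 40% that is below the 50.5% of all genes called. *Lig4*, the ligase of the pathway, measured 1.78 and 2.35 CPM in the vehicle samples of WT and 3.09 and 3.73 CPM in those of *Arid1a* KO tumors, and 4.24 and 2.74 CPM and 3.51 and 2.49 CPM in the JSH-23 samples. It had the lowest counts of the 42, 30 to 77 per library, and the WT samples with JSH-23 lay 1 above and 1 within the range of the *Arid1a* KO samples. Its rise with *Arid1a* loss (0.73 ± 0.25 (SE), adjusted p = 0.013), its rise with JSH-23 in WT tumors (0.76 ± 0.26 (SE), adjusted p = 0.0092) and its interaction (-0.96 ± 0.34 (SE), adjusted p = 0.021) passed by edgeR, and none of the 3 was called without replicate 1 of the WT vehicle samples (0.54, 0.58 and -0.77), by DESeq2 or by limma on TPM. Leaving out replicate 2 of the *Arid1a* KO vehicle samples also lost the first (0.58) and the last (-0.81), leaving out replicate 1 of the WT JSH-23 samples the second (0.41) and the last (-0.60), and leaving out replicate 2 of the *Arid1a* KO JSH-23 samples the last (-0.71). *Prkdc*, the DNA-dependent protein kinase, had values from 30.0 to 44.3 CPM, rose with *Arid1a* loss by 0.49 and fell with JSH-23 by -0.31 in *Arid1a* KO tumors. The Ku subunits differed: *Xrcc5* (Ku80) fell with JSH-23 by -0.42 and -0.23, while *Xrcc6* (Ku70) rose by 0.22 in *Arid1a* KO tumors, a change that turned on the TPM scale. *Xrcc4*, the partner of the ligase, fell by -0.33 in *Arid1a* KO tumors.

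In single-strand break repair, *Xrcc1*, the scaffold of the pathway, measured 55.9 and 54.0 CPM in the vehicle samples of WT and 75.1 and 72.3 CPM in those of *Arid1a* KO tumors, and 41.7 and 40.0 CPM and 47.3 and 49.4 CPM in the JSH-23 samples. The 4 groups did not overlap, with *Arid1a* KO above WT and JSH-23 below vehicle. It rose with *Arid1a* loss by 0.42 ± 0.052 and fell with JSH-23 by -0.61 ± 0.051 (SE), adjusted p = 5.3e-17 in *Arid1a* KO and -0.43 ± 0.059 in WT tumors (edgeR). *Parp1* was nearly flat, at 175 and 178 CPM in the vehicle samples of WT, 177 and 175 CPM in those of *Arid1a* KO and 174 and 176 CPM in the JSH-23 samples of WT tumors, and stood at 204 and 204 CPM in *Arid1a* KO tumors with JSH-23. Those last 2 samples were above the other 6, and the rise of 0.21 ± 0.029 (SE), adjusted p = 9.4e-10 (edgeR) became -0.02 with limma on log2(TPM + 1), so its direction rests on the scaling. *Lig3*, the ligase bound to XRCC1, fell with JSH-23 by -0.15 in *Arid1a* KO and -0.32 in WT tumors.

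In nucleotide excision repair, which cuts out bulky lesions, 2 of the 3 genes rose with JSH-23 in both genotypes, where 33.4% of all genes rose in *Arid1a* KO and 28.6% in WT tumors. *Ercc1*, a subunit of a structure-specific nuclease, measured 24.2 and 27.9 CPM in the vehicle samples of WT and 18.3 and 19.2 CPM in those of *Arid1a* KO tumors, and 32.1 and 30.6 CPM and 35.1 and 38.4 CPM in the JSH-23 samples. All 4 JSH-23 samples lay above all 4 vehicle samples, and *Arid1a* KO was below WT with vehicle and above it with JSH-23. The second of these differences (0.23) was not called by DESeq2 (0.23), with library size scaling (0.15), by limma on log2(TPM + 1) (0.04), or without replicate 2 of the WT (0.20) or of the *Arid1a* KO JSH-23 samples (0.17). The rise in WT tumors given next was not called without replicate 1 of the WT vehicle samples (0.17) or by limma on log2(TPM + 1) without a filter (0.22). The rise was 0.97 ± 0.078 (SE), adjusted p = 5.2e-18 in *Arid1a* KO and 0.26 ± 0.079 in WT tumors, with an interaction of 0.71, adjusted p = 2.7e-07 (edgeR). *Xpa*, the protein that verifies the lesion, measured 14.0 and 14.0 CPM in the vehicle samples of WT and 11.4 and 9.54 CPM in those of *Arid1a* KO tumors, and 19.0 and 17.9 CPM and 17.7 and 17.7 CPM in the JSH-23 samples. It too was higher in every JSH-23 sample than in any vehicle sample, by 0.76 ± 0.10 (SE), adjusted p = 1.3e-09 in *Arid1a* KO and 0.40 ± 0.10 in WT tumors (edgeR). *Xpc*, the lesion sensor, went the other way, with 0.19 for *Arid1a* loss and -0.16 and -0.24 for JSH-23.

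In mismatch repair, *Pms2*, the endonuclease subunit, measured 41.1 and 41.2 CPM in the vehicle samples of WT and 48.5 and 49.8 CPM in those of *Arid1a* KO tumors, and 30.3 and 29.7 CPM and 41.99 and 43.2 CPM in the JSH-23 samples. *Arid1a* KO was above WT under both treatments, by 0.26 ± 0.060 with vehicle and 0.51 ± 0.065 with JSH-23, and the WT samples with JSH-23 were the lowest. It fell with JSH-23 by -0.21 ± 0.058 in *Arid1a* KO and -0.46 ± 0.067 (SE), adjusted p = 2.3e-08 in WT tumors (edgeR). *Msh6*, the mismatch recognition subunit, was higher in *Arid1a* KO tumors by 0.30 with vehicle and 0.18 with JSH-23, and the second of these changed sign on the TPM scale.

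Other genes of these pathways, outside the 42, were counted from lists of names. Of 58 further repair genes tested, 22 rose and 7 fell with *Arid1a* loss with vehicle (50% called, near the 50.5% of all genes), and 12 rose and 28 fell with JSH-23 in *Arid1a* KO tumors, 11 and 25 in WT tumors. With JSH-23, 69% of them were called in *Arid1a* KO tumors, near the 67.8% of all genes, and 62.1% in WT tumors against 55.8%. The flap endonuclease gene *Fen1* fell by -1.48 and -1.40 and the helicase gene *Brip1* by -0.91 and -0.70, while the nucleotide excision repair genes *Ddb1* and *Rad23b* rose by 0.56 and 0.58 in *Arid1a* KO tumors. Of 18 further checkpoint and damage signaling genes, 9 rose and 3 fell with *Arid1a* loss, and 3 rose and 11 fell with JSH-23 in *Arid1a* KO tumors, 4 and 6 in WT tumors. These are 66.7% called against 50.5% of all genes, 77.8% against 67.8%, and 55.6% against 55.8%. The fork protection genes *Timeless* and *Tipin* fell by -0.96 and -0.85 in *Arid1a* KO tumors and by -1.15 and -0.60 in WT tumors.

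Genes of replication and proliferation, 35 in all, also mostly rose with *Arid1a* loss and fell with JSH-23. With *Arid1a* loss 27 rose and 5 fell with vehicle, and 30 rose with JSH-23, where the other 5 did not pass the test. With JSH-23, 21 fell and 10 rose in *Arid1a* KO tumors, and 26 fell and 5 rose in WT tumors. The share called was 91.4% for *Arid1a* loss with vehicle against 50.5% of all genes, 85.7% with JSH-23 against 47%, 88.6% for JSH-23 in *Arid1a* KO tumors against 67.8%, and 88.6% in WT tumors against 55.8%. *Rrm2*, the ribonucleotide reductase subunit of S phase, fell by -1.07 and -1.20, and *Pcna*, the replication clamp, by -0.90 and -0.99, but *Top2a*, which peaks in G2 and mitosis, rose by 0.48 in *Arid1a* KO tumors. Their medians were 0.35 for *Arid1a* loss with vehicle, -0.36 for JSH-23 in *Arid1a* KO and -0.47 in WT tumors, beside 0.27, -0.22 and -0.17 for the 42 repair genes. Their part in the changes of the repair genes was not tested.

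Of 19 damage-induced p53 target genes tested, 11 rose and 4 fell with *Arid1a* loss with vehicle. With JSH-23, 6 rose and 9 fell in *Arid1a* KO tumors and 12 rose and 4 fell in WT tumors, and the interaction was called for 11, of which 9 were negative. The share called was 78.9% for *Arid1a* loss against 50.5% of all genes, 78.9% and 84.2% for JSH-23 against 67.8% and 55.8%, and 57.9% for the interaction against 38.4%. *Cdkn1a*, the p21 cell cycle inhibitor, rose with *Arid1a* loss by 0.68 and fell with JSH-23 by -0.64 and -0.51, and *Btg2*, an antiproliferative gene, rose by 1.38 and fell by -1.65 and -1.20. *Eda2r*, a death receptor gene, rose in both, by 1.35 with *Arid1a* loss and by 0.53 and 1.65 with JSH-23. The list holds mostly growth arrest and death genes, and the members named here did not follow one direction.

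**Figure D5:**
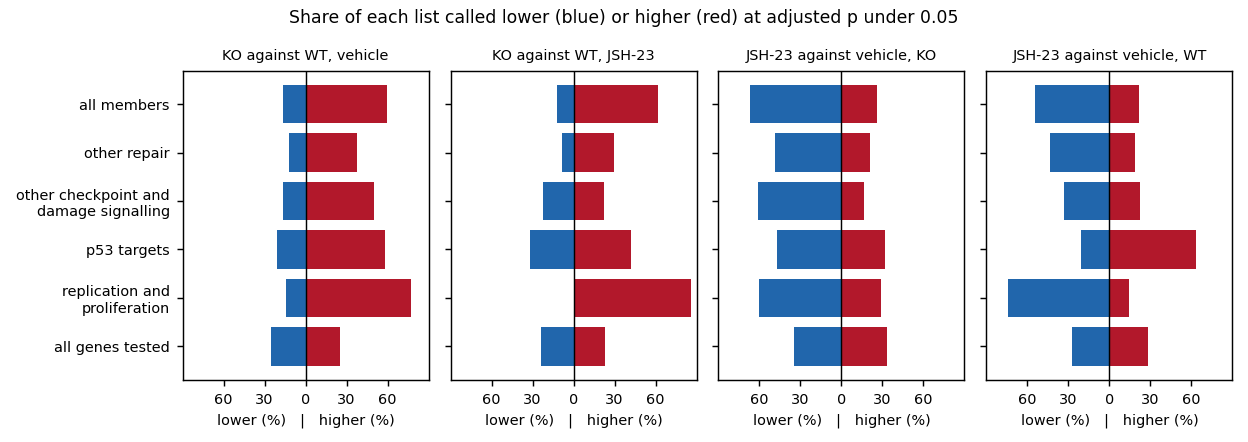
Bars give, for each comparison, the percent of a list's tested genes called higher (red, to the right) or lower (blue, to the left), with all genes tested in the bottom row. In both JSH-23 comparisons the 42 members and the replication list have longer blue than red bars, while in the bottom row the bars are of nearly equal length.

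Other quantities moved with these groups. The summed level of the 6 epithelial markers was 88.8 to 102 CPM in the vehicle samples of WT and 216 to 217 CPM in those of *Arid1a* KO tumors, and 45.4 to 47.0 CPM and 179 to 187 CPM in the JSH-23 samples, highest and lowest in the same groups as the summed repair genes, and its part in the result was not tested. Nearly all of this sum came from *Krt8* (540 to 2308 counts) and *Krt19* (207 to 2106), as no other epithelial marker passed 19 counts in a library. The 9 immune markers summed to 22.8 to 23.6 CPM in the vehicle samples of WT and 14.7 to 16.6 CPM in those of *Arid1a* KO tumors, and to 11.8 to 19.5 CPM and 9.21 to 10.1 CPM in the JSH-23 samples. Of the 4 immune markers with enough counts to be tested, 3 were lower with *Arid1a* loss with vehicle, and their part was not tested either. The 4 endothelial markers summed to at most 1.77 CPM in any sample. The 5 fibroblast markers, of which *Pdgfra* alone had 704 to 1265 counts, ran from 41.9 to 65.8 CPM, lowest in *Arid1a* KO tumors with JSH-23. In those last libraries the fold change depended on gene length: for JSH-23 in *Arid1a* KO tumors, the median of all genes was 0.12 for lengths up to 2000 bases and -0.12 over 8000 bases. With that trend removed, an alternative added after the values were seen, 31 of the 39 calls of repair genes for JSH-23 in *Arid1a* KO tumors remained, the 10 past 1.5-fold among them. Over all genes, the Spearman correlation of length with fold change was -0.123 there. It was stronger for *Arid1a* loss with JSH-23 (-0.233) and for the interaction (-0.188). In these 2, 30 of 31 and 16 of 19 calls remained, and 5 and 3 further repair genes were called.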

How the data were processed

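RNA-seq counts of 8 samples, 4 groups of 2, were analysed. Samples were grouped by their titles. Per the labels and the paper, the authors aligned reads to GRCm38/mm10 and deposited whole-number counts per gene, made by strand with HTSeq-count. The aligner is given as TopHat2 in the methods and as HISAT2 in the submitters' processing notes. The deposited TPM values are counts divided by a gene length and rescaled by the authors, a step not described, and keep no depth. Where 2 genes are nearly identical, keeping the best match may assign a read to either of them.

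Genes were filtered with filterByExpr and scaled by TMM (factors 0.949 to 1.03) in edgeR 4.0.16 (R 4.3.3), and a single quasi-likelihood fit with 1 coefficient for each of the 4 groups used all 8 samples. P-values were adjusted over 13921 genes by the Benjamini-Hochberg method. A gene was called at an adjusted p under 0.05, and a change of 1.5-fold or more is named as such. Log2 fold changes are given with their standard errors and 95% intervals as 1.96 standard errors, all n = 2 against 2, and intervals cover the spread between these samples. The tests were checked on counts simulated with the spread fitted to these samples. Such a check cannot show whether that spread is technical. Alternatives used DESeq2 1.42.0, limma 3.58.1 on TPM values, as log2 with 1 or 0.1 added, other scaling, filters, thresholds and spreads, a replicate block, and leaving out each sample. Values in every sample are given for genes past 1.5-fold in a pairwise comparison and for the 5 genes with the smallest p in each comparison. The 42 genes and the lists were chosen with earlier results of these data known. Of 20 checkpoint genes listed, 2 symbols were not matched. The authors' series-wide TPM table, identical to the per-sample values, was not used.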

Additional observations from a re-analysis of the deposited data

Results flagged for a closer look

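For 19 of the 42 genes the effect of JSH-23 in *Arid1a* KO tumors differed from that in WT tumors by the interaction term (edgeR quasi-likelihood test, Benjamini-Hochberg adjusted), against 38.4% of all genes. Each value below is the log2 fold change in *Arid1a* KO minus that in WT tumors.

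JSH-23 had opposite called effects on 2 genes: *Rad51c* (-0.60) and *Fanca* (-0.51) fell in *Arid1a* KO and rose in WT tumors. For *Rad51c* each of these changes was lost in 2 of the 8 fits that left out a sample, and DESeq2 called neither. It raised 5 genes in both genotypes and raised them more in *Arid1a* KO tumors: *Rad51b* (0.94), *Ercc1* (0.71), *Rad52* (0.43), *Xpa* (0.36) and *Rad50* (0.25). It lowered 4 genes in both and lowered them more in *Arid1a* KO tumors: *Brca2* (-0.42), *Atm* (-0.36), *Mdc1* (-0.23) and *Brca1* (-0.17). *Pms2* (0.25) fell in both, and less in *Arid1a* KO tumors.

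In the other 7 genes, JSH-23 had a called effect in 1 genotype. *Nbn* (0.66) and *Blm* (0.26) fell in WT tumors, and *Lig4* (-0.96) rose there. *Xrcc3* (-0.58) and *Prkdc* (-0.33) fell in *Arid1a* KO tumors, and *Parp1* (0.23) and *Xrcc6* (0.19) rose there. In the test with a biological coefficient of variation of 0.1, the interaction passed for *Ercc1* and *Rad51b*. The interaction of *Xpa*, with an adjusted p of 0.041, was lost in 6 of the 8 fits that left out a sample. Those of *Lig4*, *Pms2*, *Brca1* and *Rad52* were lost in 4, 3, 2 and 1 of these fits. Some of these fits also lost those of *Prkdc* and *Xrcc6*. DESeq2 did not call the interactions of *Brca1*, *Pms2*, *Rad52*, *Prkdc*, *Xrcc6*, *Lig4* and *Xpa*. That of *Xrcc6* changed sign by limma on log2(TPM + 1).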

How the results depend on the processing

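The numbers of genes called depended on the settings, and the cause was not tested unless stated. The text reports 25 higher and 7 lower for *Arid1a* KO against WT with vehicle, 26 and 5 with JSH-23, 11 and 28 for JSH-23 in *Arid1a* KO tumors, 9 and 23 in WT tumors, and 10 and 9 for the interaction. DESeq2 called 4 lower for *Arid1a* loss with vehicle, 3 lower with JSH-23 and 6 positive interactions. Library size scaling called 6 positive and 15 negative interactions. limma on log2(TPM + 1) and on log2(TPM + 0.1) called 4 lower for *Arid1a* loss with vehicle, 11 higher and 8 lower with JSH-23, 5 higher for JSH-23 in *Arid1a* KO tumors, and 3 positive and 16 negative interactions. On log2(TPM + 1) without a filter these were 3, 8 higher, 5, and 2 and 14, with 3 higher for JSH-23 in WT tumors. *Parp1* with JSH-23 in *Arid1a* KO tumors changed sign, to -0.0245 on log2(TPM + 1) with and without the filter and -0.0247 on log2(TPM + 0.1), and none was called by limma.

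The test against a 1.5-fold change, a stricter question, called 3 higher and 0 lower for *Arid1a* loss with vehicle, 0 and 0 with JSH-23, 3 higher and 2 lower for JSH-23 in *Arid1a* KO tumors, 0 and 1 in WT tumors, and 0 and 0 for the interaction. At an unadjusted p under 0.05, that test gave 3 and 0, 0 and 0, 4 and 2, 0 and 1, and 2 and 1 in the same order. With a biological coefficient of variation of 0.1, the counts were 14 and 3, 10 and 2, 5 and 15, 3 and 10, and 2 and 0, where the last had 3 and 4 at an unadjusted p under 0.05, and DESeq2 called 6 and 6.

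The genes' median minus that of all genes was 0.27, 0.24, -0.20, -0.16 and 0.003 in the same order. With no filter it was 0.25, -0.15 and 0.053 for *Arid1a* loss with vehicle, JSH-23 in *Arid1a* KO and the interaction. It was -0.24 for JSH-23 in *Arid1a* KO with at least 10 counts in every sample, and 0.25 and 0.19 for *Arid1a* loss with vehicle and with JSH-23 on log2(TPM + 1). On that scale without a filter it was 0.25, 0.072, -0.33, -0.20 and -0.11. With the length trend removed it was -0.14 for JSH-23 in *Arid1a* KO and 0.073 for the interaction. Each of these kept the sign of the first 4.

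Leaving out 1 sample at a time gave 24 to 25 higher and 4 to 7 lower for *Arid1a* loss with vehicle, 21 to 26 and 3 to 5 with JSH-23, 10 to 11 and 21 to 27 for JSH-23 in *Arid1a* KO, 5 to 10 and 19 to 23 in WT tumors, and 7 to 10 and 7 to 10 for the interaction. The lowest counts came without replicate 2 of the *Arid1a* KO vehicle samples (4 lower) and without replicate 1 of the WT JSH-23 samples (5 higher, and 3 lower for *Arid1a* loss with JSH-23). The medians ran from 0.23 to 0.27, 0.21 to 0.25, -0.24 to -0.16, -0.19 to -0.14 and -0.039 to 0.038. With the replicate number as a block, 11 interactions were positive, and no call was lost. Same-numbered samples did not deviate together, with correlations of -0.096 to 0.040. As the samples of a group differed little, these values cannot settle whether the numbers pair the samples. Fits of the groups compared alone changed no count by over 1.5 times. With 2 samples a group of unstated origin, the spread between tumors is not measured here.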
